A study of Saccharomyces cerevisiae with 104 samples.

Results

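Transfer RNA genes make the adaptor molecules that carry amino acids to the ribosome. They are transcribed by RNA polymerase III from promoter elements that lie inside the gene. The precursors are trimmed at both ends, modified at many bases and exported to the cytoplasm. Some yeast tRNA genes also hold an intron, which the Sen endonuclease complex cuts out and the ligase Trl1 seals, without the spliceosome. The nuclear tRNA genes described here are the rows outside the mitochondrial genome whose identifier names an amino acid by letter and an anticodon. There were 275 of them among 7108 rows in each of 4 gene abundance tables, and all 275 had coordinates equal to a tRNA gene of the RefSeq table for assembly R64. No sequence of these genes was used here.

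The organism is the budding yeast Saccharomyces cerevisiae, and the study concerns stalled RNA polymerase II under short peroxide stress. It holds 100 ChIP-exo samples, not analysed here, and 4 RNA-seq libraries of total RNA. One text for all samples gives growth at 25 °C, exposure to 0.3 mM H2O2 for 6 min and formaldehyde crosslinking, and no label gives an RNA-seq library its strain, genotype or an untreated state. The libraries are therefore called library 1 to library 4 by name only, none is known to be a replicate of another, and no groups were compared. Values in series follow libraries 1, 2, 3 and 4. LEU2, URA3 and MET17, genes of nutrient synthesis often deleted in laboratory strains, were listed at 0 in each library.

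Transfer RNA genes were a very small part of each library. They held 0.0791, 0.232, 0.0994 and 0.0678% of TPM, a length-normalised share scale with the same total in each library. Ribosomal RNA held 45.5, 81.3, 71.8 and 85.1% of TPM and nuclear protein-coding genes held 46.9, 12.2, 21.2 and 5.77%. TPM is a share, so a level moves with those totals, and in bulk RNA fewer cells making a transcript and less of it per cell cannot be told apart. Per 1000 TPM of nuclear protein-coding genes, tRNA genes had 1.69, 18.998, 4.69 and 11.7 TPM, so the order of libraries 1, 3 and 4 differed between the 2 scales. Coverage times span, the aligned bases, summed over tRNA genes to 18.3, 84.6, 33.8 and 31.6 kilobases, against 302.3, 218, 236 and 189.6 megabases over all rows. Among tRNA genes above 0, the median gene rested on 62, 180.5, 95 and 88 aligned bases and reached a mean depth of 0.833, 2.43, 1.32 and 1.19. Library 2 thus gave the deepest tRNA values, and most single genes rest on few reads. The tables hold no read counts, so no counting interval was computed.

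Many tRNA genes were listed at 0, and most of those listed at 0 throughout belonged to families that carry introns. In library 1, 140 of 275 tRNA genes (50.9%) were listed at 0, beside 5.46% of all 7108 rows. In library 2 there were 73 (26.5%), beside 5.54% of all rows. The share was 37.8% in library 3, beside 5.46% of all rows, and 36.4% in library 4, with 100 genes, beside 6.77%. In every library at once, 61 tRNA genes (22.2%) were listed at 0, beside 3.07% of all rows. A further 111 were above 0 in each library, 53 in 3 libraries, 30 in 2 and 20 in 1.

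In yeast 10 anticodon families are known to carry introns, and here they held 59 genes. They are the phenylalanine, tryptophan and tyrosine families, the isoleucine family with anticodon UAU, the lysine family with UUU, the proline family with UGG, and the leucine and serine families other than leucine GAG, leucine UAA, serine AGA and serine UGA. This list was drawn up after the values were seen. These 59 genes had annotated spans of 89 to 133 bases, and the other genes with a named amino acid had spans of 71 to 84 bases. Of the 59 intron-family genes, 57 (96.6%) were listed at 0 in every library, against 4 of the 216 other tRNA genes (1.85%). Counted by library, 59, 59, 59 and 57 intron-family genes were at 0, against 81, 14, 45 and 43 of the other 216. Thus 9 of the 10 intron families showed no value above 0 anywhere. They include all 10 phenylalanine genes, all 6 tryptophan genes and all 8 tyrosine genes, which are the only nuclear genes for those amino acids. The ochre suppressor locus SUP4, or tY(GUA)J2 (chromosome 10, 542956 to 543044, minus strand, sacCer3), was among them, as was SUP61, or tS(CGA)C (chromosome 3, 227942 to 228042, plus strand), the only gene for its serine anticodon and essential for growth.

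**Figure D1:**
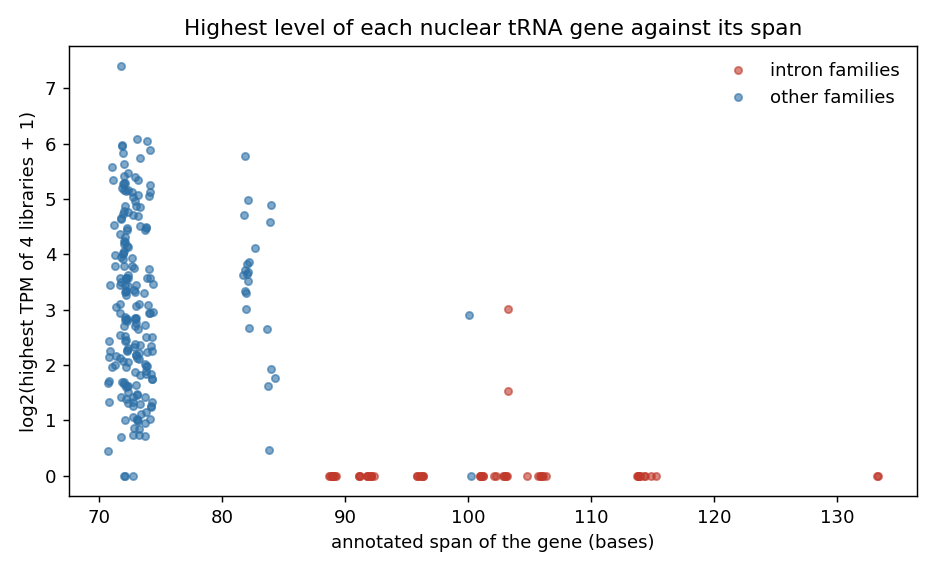
Annotated span of each of the 275 nuclear tRNA genes (x axis, bases, points spread slightly) against its highest level over the 4 libraries (y axis, log2 of TPM + 1). Intron-family genes, at 89 to 133 bases, lie at 0 apart from 2 proline genes, while 4 of the 216 other genes lie at 0.

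The exceptions among the intron families were both proline UGG genes, and both had a value in library 4 only. SUF8, or tP(UGG)H, stood at 0, 0, 0 and 7.07 TPM and tP(UGG)N1 at 0, 0, 0 and 1.88 TPM. Both overlap another row of the tables, YHR145C and YNL042W-B, on the same strand. SUF11 and tP(UGG)O1, which also overlap a row, were at 0 throughout. In the other direction, the 4 genes outside the intron families at 0 throughout were the glycine gene SUF6, or tG(UCC)N, the threonine gene tT(AGU)N2, the arginine gene tR(UCU)G2, and tX(XXX)L. Of these, SUF6 and tR(UCU)G2 also overlap another row, YNL285W and YGR164W, on the opposite strand. These exceptions fell outside the naming rule and were chosen after their values were seen.

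Rows of similar length were mostly above 0 in some library, though more often at 0 throughout than rows in general. Among 109 other rows with spans of 89 to 133 bases, 19 (17.4%) were listed at 0 in every library, beside 3.07% of all rows. The gene tX(XXX)D, a 100-base gene whose amino acid the identifier leaves unnamed, stood at 6.46, 1.61, 5.46 and 2.82 TPM. HAC1, the transcription factor gene of the unfolded protein response, holds the messenger intron that Ire1 cuts and Trl1 joins, also without the spliceosome. It was listed at 0 in each library (chromosome 6, 75179 to 76147) and was 1 of 18 such genes among 5101 named nuclear protein-coding genes. LEU2, URA3 and MET17 were also among the 18. Whether the remaining ones, such as SAE3, BUD25 and GMC2, hold introns was not examined. The next 3 genes, whose intron the spliceosome removes, had values in each library. The actin gene ACT1 stood at 212, 142, 82.3 and 46.1 TPM, the ribosomal protein gene RPL28 at 247, 278, 170.0 and 129.9 TPM, and the U3 small nucleolar RNA gene SNR17A at 662, 2978, 449 and 1784 TPM. HAC1 and these 3 genes were chosen after their values were seen, so they make no comparison of intron types. The cause of the zeros was not tested.

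Genes of tRNA splicing were themselves measured. The ligase gene TRL1 (chromosome 10, 270002 to 272485) had 58.3, 0, 22.5 and 4.41 TPM, whereas the other 5 splicing genes were above 0 in each library. Of the endonuclease subunit genes, SEN2 had 23.8, 3.29, 9.95 and 2.26 TPM and SEN54 had 20.9, 3.0, 8.10 and 1.22 TPM. TPT1, the phosphotransferase that finishes the joined tRNA, had 23.2, 3.78, 9.90 and 3.24 TPM. TRL1 was at 0 in library 2 alone, and that 0 may be an estimate that failed. All 59 intron-family genes were at 0 in libraries 1, 2 and 3. Any link between the level of TRL1 and these zeros was not tested.

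**Figure D2:**
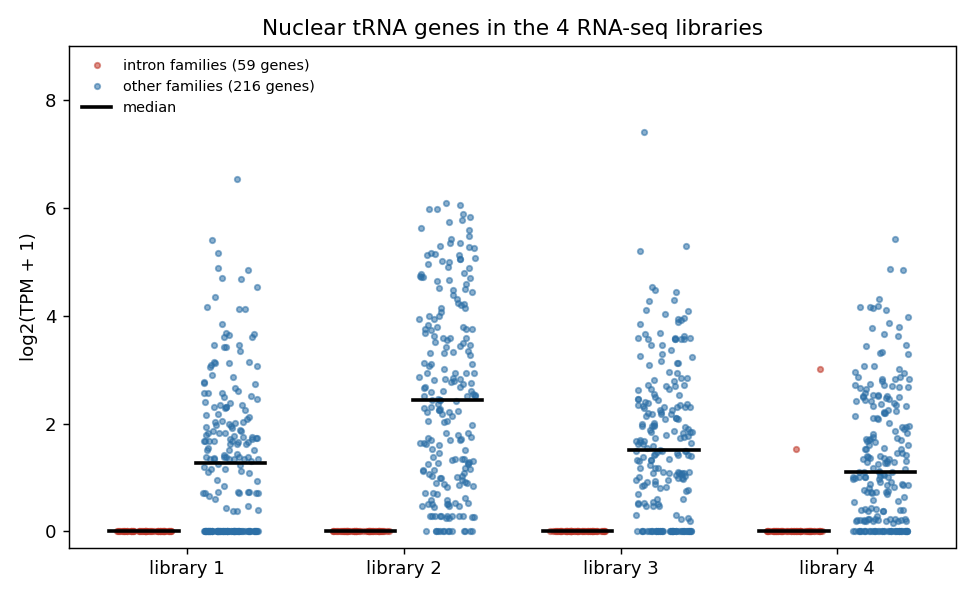
Level of each nuclear tRNA gene in each library (y axis, log2 of TPM + 1; 1 point per gene, black bars at the median). The intron families sit at 0 in libraries 1, 2 and 3, and the other families have their highest median, 4.44 TPM, in library 2.

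Outside the intron families, library 2 held the highest levels. The 216 genes had a median of 1.42, 4.44, 1.84 and 1.16 TPM, and over all 275 genes, zeros included, the median was 0, 2.08, 1.09 and 0.663 TPM. The median over all rows of the tables was 34.3, 6.84, 15.5 and 3.28 TPM. Of the 214 tRNA genes above 0 in some library, 27 had their highest level in library 1 (12.6%), 112 in library 2 (52.3%), 54 in library 3 (25.2%) and 21 in library 4 (9.81%). Among all 6890 rows above 0 in some library, 88.2% were highest in library 1, 6.68% in library 2, 3.89% in library 3 and 1.19% in library 4. More than 10 TPM was reached by 18, 69, 27 and 16 tRNA genes.

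Levels moved less in TPM for tRNA genes than for other rows. On the log2(TPM + 1) scale, 192 of 275 tRNA genes (69.8%) spanned at least 2-fold over the libraries, beside 92.2% of all rows. A gene that is low in each library cannot span much on that scale. The 214 genes above 0 in some library had a median range of 2.03 log2 units, and all rows had 2.90. Measured from each gene's own 4-library median, the median tRNA gene differed by 0, 0.12, 0 and 0 log2 units, while the median row differed by 1.53, -0.48, 0.49 and -1.29. Less the median row, tRNA genes stood at -1.53, 0.61, -0.49 and 1.29. Over all 275 genes these values come mostly from the shift of the other rows. Genes at 0 throughout have a difference of 0 and are in these medians. Over the 214 genes above 0 in some library, the median gene differed by -0.12, 0.60, 0 and -0.03 log2 units. Less the median row, these 214 genes stood at -1.65, 1.08, -0.49 and 1.26. In library 2 their own shift, 0.60, was larger in size than that of the median row, -0.48. With the libraries scaled by median ratios first, the values over all 275 genes were -0.44, 0.37, 0 and 0.28.

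The order of tRNA genes within a library was only loosely shared between libraries. Over the 214 genes above 0 in some library, library 2 had Spearman correlations of 0.242 with library 1, 0.180 with library 3 and 0.304 with library 4. Library 1 gave 0.579 with library 3 and 0.558 with library 4, and the pair of libraries 3 and 4 gave 0.559. The 6833 rows that are no nuclear tRNA genes gave values between 0.822 and 0.962. Genes within a library share its depth and are not independent, and the low depth of tRNA genes was not matched here. The order in library 2 was the least like the others.

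The highest single gene in 3 of the 4 libraries was tH(GUG)G2, a histidine gene (chromosome 7, 319781 to 319852, plus strand). It stood at 91.3, 31.3, 168 and 41.6 TPM, with a mean depth of 28.997, 15.5, 77.9 and 26.1, and its nearest row that is not a tRNA gene, USE1, lies 1702 bases away. It made up 91.1, 36.2, 93.6 and 62.1% of the TPM of the 7 histidine genes. CDC65, or tQ(CUG)M, the only gene for the glutamine CUG anticodon (chromosome 13, 808246 to 808317, minus strand), was second by the median of the 4 libraries, at 24.8, 11.3, 35.95 and 27.6 TPM. SUF2, or tP(AGG)C, a proline gene first known from frameshift suppressors (chromosome 3, 123577 to 123648, minus strand), stood at 24.7, 11.04, 37.99 and 16.1 TPM. All 3 were lowest in library 2 and highest in library 3, against the trend of tRNA genes as a whole.

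Aspartate genes were the most evenly seen family. All 16 tD(GUC) genes were above 0 in each library, and together they held 129, 236, 169 and 118 TPM, or 16.3, 10.2, 16.99 and 17.4% of all tRNA TPM. The highest were tD(GUC)D (chromosome 4, 568964 to 569035) at 16.9, 26.6, 22.2 and 17.003 TPM, tD(GUC)G1 at 19.4, 43.4, 18.4 and 14.7 TPM, tD(GUC)L2 at 16.5, 34.3, 10.9 and 18.9 TPM, and tD(GUC)L1 at 7.34, 25.5, 8.42 and 17.2 TPM. In all, 9 families with 42 genes had each gene above 0 in each library. Apart from aspartate these were both glutamate families, proline AGG, serine UGA, valine UAC and the single genes for leucine GAG, glutamine CUG and arginine CCG.

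The glutamate UUC family was highest in library 2 and next in library 4. Its 14 genes summed to 30.5, 296, 37.5 and 116 TPM. tE(UUC)M (chromosome 13, 290801 to 290872, plus strand) stood at 3.24, 62.1, 1.80 and 28.02 TPM, and tE(UUC)E1 (chromosome 5, 177099 to 177170) at 5.63, 34.7, 4.62 and 16.6 TPM. Serine AGA genes followed the same order of libraries from the top, with 14.4, 176, 44.2 and 54.1 TPM for 11 genes.

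Several families stood far higher in library 2 than in the other libraries. The 13 isoleucine AAU genes summed to 4.77, 211, 10.9 and 8.76 TPM, and 8 of them were at 0 in library 1 against none in library 2. The 11 threonine AGU genes summed to 13.9, 166, 3.48 and 5.26 TPM, with tT(AGU)B (chromosome 2, 266378 to 266450) at 1.55, 52.4, 1.77 and 1.48 TPM. The 11 alanine AGC genes summed to 10.1, 123, 3.01 and 1.07 TPM. The 9 glutamine UUG genes were all at 0 in library 1 and all above 0 in library 2, with sums of 0, 93.9, 14.9 and 1.61 TPM. Of the 33 families above 0 in some library, 3 were highest in library 1, 22 in library 2, 5 in library 3 and 3 in library 4.

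**Figure D3:**
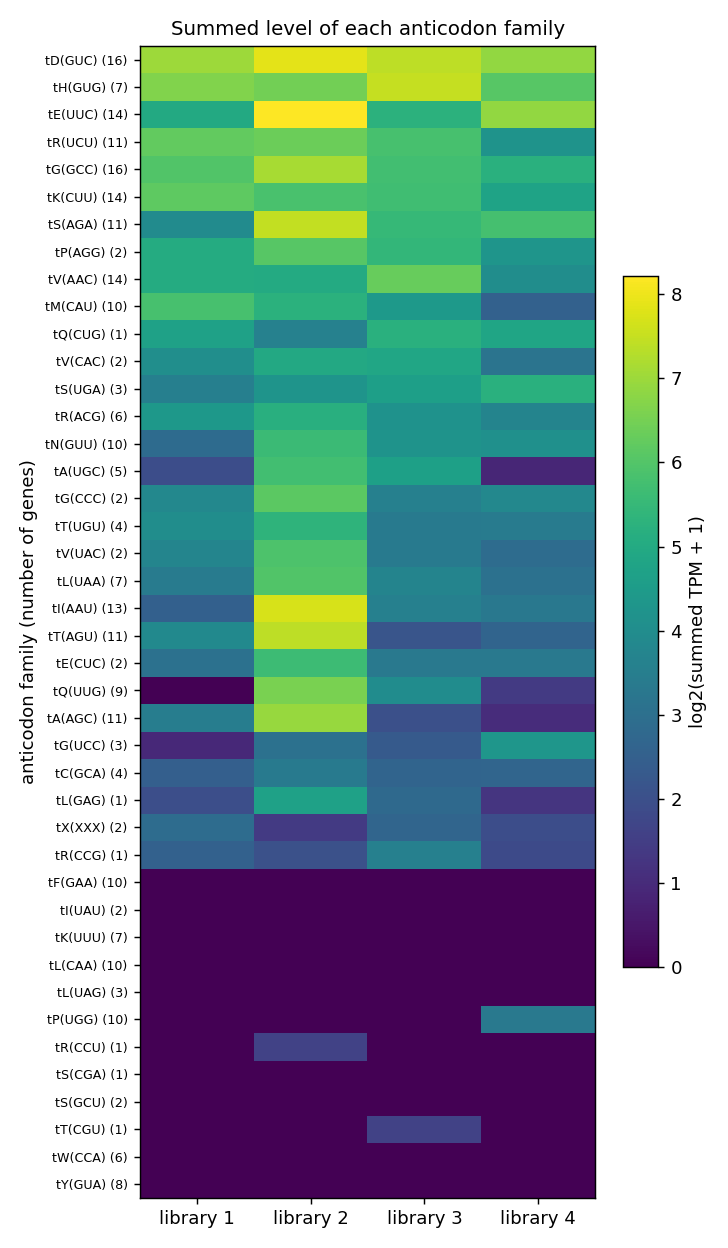
Summed level of each of the 42 anticodon families, with the number of genes in brackets, in the 4 libraries (colour, log2 of summed TPM + 1), ordered by their median over the libraries. The families at the bottom are the intron families and 2 single-gene families, and isoleucine AAU, threonine AGU, alanine AGC and glutamine UUG stand out in library 2.

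Some families went another way. Histidine genes summed to 100.3, 86.5, 179 and 67.01 TPM and valine AAC genes, 14 in number, to 31.98, 31.3, 78.3 and 15.1 TPM, both highest in library 3. Lysine CUU genes, 14 in number, summed to 71.8, 57.1, 50.5 and 26.1 TPM and were highest in library 1. Serine UGA genes, 3 in number, were highest in library 4, at 10.8, 17.9, 24.1 and 36.5 TPM.

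Both glycine families that follow and valine CAC were highest in library 2. Glycine GCC genes, 16 in number, summed to 62.7, 140.2, 52.2 and 36.4 TPM, with tG(GCC)F2 at 13.4, 39.6, 14.3 and 6.25 TPM. The 2 glycine CCC genes were led by SUF5, or tG(CCC)O, at 4.07, 61.6, 11.02 and 12.7 TPM. Valine CAC was led by tV(CAC)H at 11.7, 30.1, 18.6 and 5.30 TPM.

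The genes that varied most on the log2(TPM + 1) scale, at a median of at least 1 TPM, were all highest in library 2. tR(UCU)M2 (chromosome 13, 131825 to 131896, minus strand) stood at 2.33, 48.5, 0 and 0.504 TPM, SUF23, or tG(GCC)J2, at 0, 46.8, 1.09 and 2.51 TPM, and tA(UGC)G at 0, 34.1, 16.04 and 0 TPM. SUP51, or tL(UAA)J, had 0, 23.1, 1.13 and 1.93 TPM, tS(AGA)B had 1.38, 30.7, 0.189 and 4.02 TPM, and tA(AGC)H had 4.92, 21.98, 0.236 and 0 TPM. Each of these values rests on a few reads in the libraries where it is low.

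Methionine genes divide into initiators, which start translation, and elongators, which serve internal codons, and the gene names tell them apart for 9 of the 10 genes. The other gene, tM(CAU)C, has no such name in the tables and is in neither sum. It stood at 0, 2.25, 0 and 0 TPM. Its span of 72 bases and its value in library 2 equal those of IMT2 and IMT4, and the named elongators span 73 bases. The 4 initiator genes IMT1 to IMT4 summed to 4.99, 23.2, 0.748 and 0.111 TPM, and the 5 elongator genes EMT1 to EMT5 summed to 50.7, 11.6, 20.2 and 4.78 TPM. Named initiators were at 0 in 2, 0, 3 and 3 of 4 genes, while no named elongator was at 0 in any library. Some elongators had equal values in a library, such as 15.2 aligned bases each for EMT1, EMT2 and EMT4 in library 2. They may therefore not be separate detections. Over all 10 methionine genes 3, 0, 4 and 4 were at 0. IMT3, at 1.62, 15.8, 0 and 0 TPM, was the highest initiator in library 2. EMT5, or tM(CAU)J1 (chromosome 10, 391043 to 391115, minus strand), held most of the elongator sum in library 1, at 41.4, 8.91, 2.59 and 1.13 TPM, and EMT3 overlaps the row YJL007C.

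Of the 6 single-gene anticodon families, 3 had a value in each library. CDC65 is given above. TRR4, or tR(CCG)L, had 4.90, 3.12, 10.9 and 2.57 TPM, and tL(GAG)G had 2.92, 25.2, 5.99 and 1.40 TPM. HSX1, or tR(CCU)J, was above 0 only in library 2, at 2.05 TPM, and TRT2, or tT(CGU)K, only in library 3, at 2.07 TPM. SUP61 was at 0 throughout, as described. Across the 42 families the number of genes and the summed TPM had Spearman correlations of 0.379, 0.513, 0.367 and 0.376, and across the 32 families without introns they were 0.507, 0.728, 0.512 and 0.452. A family with more genes has more chances to collect reads, and families share each library's depth.

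In 4 places an arginine UCU gene and an aspartate gene lie 10 bases apart on the same strand, an arrangement known to give a joint precursor. One such pair spans 374424 to 374577 on the minus strand of chromosome 10. Its arginine gene tR(UCU)J2 had 34.7, 12.6, 7.67 and 2.71 TPM and its aspartate gene tD(GUC)J3 had 7.81, 37.6, 11.8 and 7.43 TPM. The pair on chromosome 2 had 9.91, 4.70, 10.9 and 3.25 TPM for tR(UCU)B and 5.76, 5.94, 14.1 and 4.71 TPM for tD(GUC)B. tR(UCU)J1 had 11.5, 5.08, 15.3 and 4.48 TPM and its partner tD(GUC)J2 had 5.80, 6.06, 14.5 and 4.92 TPM, while tR(UCU)D had 9.70, 4.36, 10.9 and 3.60 TPM beside tD(GUC)D, given above. Each aspartate gene stood above its arginine partner in libraries 2 and 4, and in library 1 the arginine gene was higher in 3 of the 4 pairs. In library 3 the aspartate gene was higher in all pairs but that of tR(UCU)J1. These pairs were chosen by position after the values were seen. Some copies had equal or near equal values, such as 363 aligned bases for both tR(UCU)B and tR(UCU)D in library 3. The pairs may therefore not be separate detections.

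Copies within a family could not be fully told apart. Of the genes above 0, 21, 31, 28 and 34 had the same number of aligned bases, within 0.05, as another gene of their family. EMT1, EMT2 and EMT4 were each listed at 0.422 TPM in library 2. The aligned bases of 64, 130, 85 and 114 genes were no whole number, and how reads that match several copies were shared is not given in the sources used here. In 14 cases a tRNA gene overlaps another row, and without strand information reads of the 2 rows cannot be told apart. Across the 212 genes outside the intron families that were above 0 in some library, coverage and that of the nearest other row had Spearman correlations of 0.027, -0.009, 0.019 and 0.060.

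Other RNA polymerase III transcripts had medians of 216, 3673, 345 and 3346 TPM over 10 genes, though some were below the highest tRNA gene, tH(GUG)G2, in libraries 1 and 3. RPR1, the RNA of the RNase P enzyme that trims tRNA 5' ends, stood at 435, 701, 299 and 397 TPM. The U6 spliceosomal RNA gene SNR6 had 85.5, 333, 182 and 449.6 TPM and the small nucleolar RNA gene SNR52 had 41.97, 113, 107 and 156 TPM. The 5S ribosomal RNA gene RDN5-4 had 212, 6230, 391.6 and 5902 TPM, and the copies RDN5-1 to RDN5-6 are near identical, so single values are uncertain. The medians over 10 genes count these copies as separate genes. The 5S genes, SNR6 and SNR52 were lowest in library 1, whereas tRNA genes as a sum, at 791, 2323, 994 and 678 TPM, were lowest in library 4. SCR1, at 3241, 15519.5, 2526 and 9441 TPM, and RPR1 were lowest in library 3. Both were highest in library 2, as the tRNA sum was. Per protein-coding TPM, as given above, and on 2 more scales the tRNA sum was lowest in library 1. As a share of aligned bases it was 0.00606, 0.0389, 0.0143 and 0.0166%, and as a share of TPM without ribosomal RNA and mitochondrial rows 0.145, 1.25, 0.352 and 0.457%. Mitochondrial tRNA genes, 24 rows, were at 0 in 24, 19, 23 and 24 cases.

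**Figure D4:**
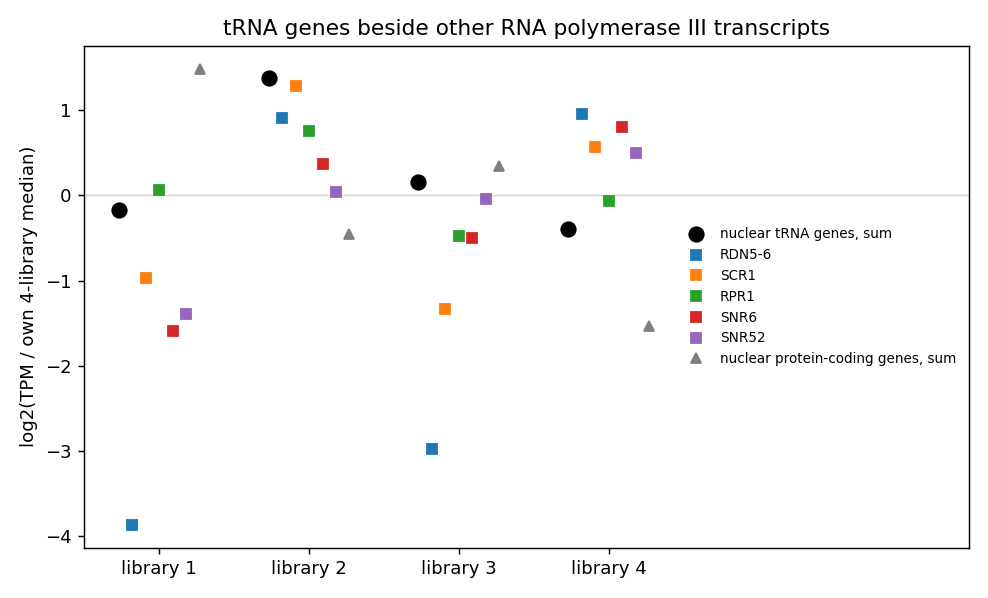
Summed TPM of the nuclear tRNA genes, TPM of 5 other RNA polymerase III transcripts and summed TPM of nuclear protein-coding genes in each library, as log2 of the ratio to the item's own 4-library median (y axis). On this TPM scale the tRNA sum is highest in library 2 and lowest in library 4, whereas RDN5-6, SNR6 and SNR52 are lowest in library 1 and highest in library 4. SCR1 and RPR1 are highest in library 2 and lowest in library 3.

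For genes of the tRNA pathway the same relative difference was taken, which is log2(TPM + 1) less the gene's own 4-library median, less that of the median row. It compares a gene with itself across libraries and says nothing of its level. By construction it is positive for 50% of all rows in each library. Where libraries 2 and 3 hold a gene's middle values, their differences mirror each other about the median. The counts for libraries 2 and 3 are then not separate observations, here and in the next paragraph. Gene length was not matched in these counts. In library 1 the difference was 1.26 for LOS1, of 3303 bases, and -0.89 for POP6, of 477 bases. It was 0.49 for RPC11, of 333 bases, and any link with length was not tested. It was positive for all 10 transcription factor genes of RNA polymerase III in libraries 1 and 3, for none in library 2 and for 2 in library 4. TFC4, of the factor that binds the internal promoter, had 53.7, 5.55, 21.3 and 2.61 TPM and MAF1, the repressor of the polymerase, had 46.1, 8.22, 19.6 and 5.71 TPM. Of the 10 subunit genes, 7, 1, 9 and 2 had a positive difference, and the gene of the largest subunit, RPO31, stood at 143, 10.1, 45.997 and 4.37 TPM. Of 13 end-processing genes it was positive for 7, 4, 9 and 4, and TRZ1, the 3' endonuclease, had 57.3, 3.16, 16.9 and 1.75 TPM.

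Among export and import genes, the relative difference was positive for 5, 1, 4 and 0 of 5, and LOS1, the nuclear exporter, had 100.7, 5.64, 31.2 and 2.35 TPM. Among 50 modification genes it was positive for 42, 7, 43 and 6. TRM9, which methylates wobble uridines, stood at 31.4, 0, 15.1 and 0 TPM, and TRM3 at 96.7, 7.14, 31.7 and 3.20 TPM. Among 11 surveillance and decay genes it was positive for 10, 1, 10 and 2, with the exosome nuclease genes RRP6 at 93.1, 9.27, 37.8 and 3.80 TPM and DIS3 at 180, 11.3, 61.4 and 4.79 TPM. Among the 6 splicing genes it was positive for 5, 0, 6 and 5. For the 10 other RNA polymerase III transcripts it was positive in 0, 10, 0 and 10 cases. The near identical copies RDN5-1 to RDN5-6 are among them and are not separate cases.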

How the data were processed

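The 4 RNA-seq gene abundance tables give read depth averaged over each gene (coverage, a signal), with FPKM and TPM beside it, all deposited by the authors with those units named in the file headers. TPM, FPKM and coverage differ only by a factor within a table, so FPKM was not used further. Coordinates are on sacCer3, per the submitters' processing notes. The RNA-seq aligner, estimator, strandedness and treatment of multiply matching reads are not given in the sources used here. A listed 0 may also be an estimate that failed.

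Members and lists were chosen with earlier results of these data known. No labels group the libraries, so no comparison was tested and there is no replicate error; Dixon's criterion served only to pick out values with a distant library. Aligned bases were coverage times span. Differences used log2(TPM + 1), which understates low genes. Intron families came from textbook knowledge. Named tRNA genes were the 12 of highest median TPM, the 8 of largest range at a median TPM of at least 1, those of single-gene families and SUP4. Other named genes were TRL1, MAF1, LOS1 and those of largest range in each of 8 lists, whose 115 members all matched; further genes in the text were chosen after their values were seen. Alternatives were pseudocounts of 0.1 and 5, filters, other scales, and leaving out each library. The calculation was tested on simulated data. Software was Python 3.11.15, scipy 1.17.1, pandas 2.3.3, matplotlib 3.10.9 and, for arrays, numpy 2.4.6.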

Additional observations from a re-analysis of the deposited data

Results flagged for a closer look

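Among 33 anticodon families above 0 in some library, the named genes and 4 summary values over all tRNA genes, 77 values were examined for a library far from the other 3 by Dixon's gap over range, and 21 had one. Chance flags about 1 in 20 groups, but the 2 rates cannot be compared here: 5 of these values belong to genes named for their large range, 2 single-gene families are counted as family and as gene, and the libraries are not known to be replicates. Of 12 families with such a library, 10 had it in library 2. In library 2 the summed TPM stood apart at 123 for tA(AGC), 9.42 for tC(GCA), 48.4 for tE(CUC), 69.4 for tG(CCC), 211 for tI(AAU), 62.0044 for tL(UAA), 93.9 for tQ(UUG), 2.05 for tR(CCU), 166 for tT(AGU) and 58.9 for tV(UAC). tP(UGG) stood apart in library 4 at 8.95 TPM and tT(CGU), with its only gene tT(CGU)K, in library 3 at 2.07 TPM. Single genes that stood apart in library 2 were tD(GUC)G1 at 43.4 TPM, tG(CCC)O at 61.6 TPM, tR(UCU)M2 at 48.5 TPM, tG(GCC)J2 at 46.8 TPM, tS(AGA)B at 30.7 TPM, tL(UAA)J at 23.1 TPM, tT(AGU)B at 52.4 TPM and tR(CCU)J at 2.05 TPM.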

How the results depend on the processing

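The sign was checked for the difference from the median row, and no alternative reversed it. It fell to 0 in library 2 without library 1 or 3. In library 3 it fell to 0 without library 2 or 4 and under median-ratio scaling. Counts at 0, shares and median TPM cannot be negative. Beside the values with a library left out, 57 stayed within 1 SD over the libraries, or for counts within 1.5 times, and 27 moved further. That SD is the spread between libraries not known to be replicates, so staying within it does not show that a value held. For the difference from the median row it was 1.24, and a move from -1.53 to -0.44 in library 1 under median-ratio scaling stayed within it. Shares of aligned bases were judged by the SD of shares of TPM. Counting genes with coverage below 1 in place of 0 gave 218, 136, 174 and 179 genes, of which 159, 77, 115 and 122 lay outside the intron families. Without the intron families 81, 14, 45 and 43 genes were at 0, the median was 1.42 TPM in library 1 and 4.44 TPM in library 2, and the correlation of gene number with summed TPM was 0.507, 0.728, 0.512 and 0.452. Over genes above 0 alone the median was 2.62, 4.92, 2.84 and 1.89 TPM. As a share of aligned bases, tRNA genes held 0.00606, 0.0389, 0.0143 and 0.0166%. As a share of TPM without ribosomal RNA and mitochondrial rows they held 0.145, 1.25, 0.352 and 0.457%. On both scales the lowest library was 1, not 4 as in TPM. With each other library left out in turn, the difference from the median row ranged from -2.003 to -1.03 in library 1, 0 to 0.95 in library 2, -0.95 to 0 in library 3 and 0.74 to 1.77 in library 4. Some alternatives were added after seeing the data, among them those without the intron families. No paired analysis was possible because the labels give the libraries no group and no replicate number. Depth limits single genes most: the lowest values above 0 rest on under 10 aligned bases.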
